A study of Mus musculus with 4 samples.

Results

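The genes described here encode collagen chains that form fibrils (Col1a1, Col1a2, Col3a1 and Col5a2), chains of the beaded-filament collagen VI (Col6a1 and Col6a3), the collagen chaperone Serpinh1, the cross-linking enzyme Lox and the procollagen proteinase Bmp1. They were measured in mouse peritoneal macrophages cultured with TGFb2 or with PBS. Members were all probe sets that the platform annotation assigned to exactly 1 of these 9 genes, which gave 16 of the 12422 probe sets left after removal of controls. They are 9 of the 8251 genes named on the array. The genes were chosen by their difference between TGFb2 and PBS in these same arrays, so that difference is given below as a description and supports nothing further. Elicited cells came from female BALB/c mice aged 6 to 8 weeks, given 2 ml of 3% thioglycolate into the peritoneum 4 days before collection, and every group shares this treatment. The cells were held overnight in serum-free medium with porcine TGFb2 (5 ng, with no volume in the labels) or with PBS. RNA was taken from the adherent fraction, for which the labels state more than 95% F4/80+ cells and do not describe the rest. Each group had 2 arrays, and nothing in the labels says that replicates were separate cultures or animals, so standard errors and p-values cover no more than the spread of these samples, whose origin may be technical.

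Fibrillar collagens are made as procollagen chains that fold into a triple helix in the endoplasmic reticulum and are secreted, trimmed at both ends and cross-linked in the matrix. Fibroblasts and other mesenchymal cells are their main source, and TGF-beta is a well-known inducer of their genes in those cells. Macrophages are better known for taking up and degrading collagen, although transcripts of several collagen chains have been described in them.

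Signals are MAS5 intensities on a linear scale, which summarise the probes of a probe set and do not allow one probe set's level to be set against another's. On the 4 arrays the trimmed mean signal was 150.1 and the median probe set ran from 40.1 to 45.6. Some listed macrophage markers were bright in both groups and others were dim. In the brightest probe set of each gene, Cd68 was between 5851 and 7363, Lyz2 between 4461.6 and 5093.7, and Adgre1, which encodes F4/80, between 470.9 and 779.9. Among the dimmer ones, Mrc1 was between 64.5 and 129.9, Aif1 between 46.5 and 65.9, and the untested Marco between 2.2 and 7.2. Of 21 tested macrophage probe sets 0 passed in limma at an adjusted p of 0.05. At an unadjusted p under 0.05 in limma 7 were higher and 1 lower, against 428 and 443 of all 7453 tested probe sets. The largest differences among the macrophage probe sets were those of the high-affinity Fc receptor Fcgr1, at 1.26 and 1.13 on the log2 scale in its probe sets (limma adjusted p = 0.0547 and 0.0666).

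Col1a1 encodes the a1 chain of collagen I, the main collagen of skin, tendon and bone. Its probe set 94305_at read 58.0 and 54.0 with PBS and 495.1 and 414.9 with TGFb2. Both TGFb2 arrays were at least 7.15 times the higher PBS array. The ratio of mean signals was 8.12, and on the log2(signal + 15) scale, used for all log2 differences here, the difference was 2.72 ± 0.18 (limma SE, n = 2 arrays per group, as for all SEs below). In these SEs limma moved each variance towards that of probe sets with similar signal. With 5.6 prior and 2 residual degrees of freedom, an SE is therefore not only the spread of a probe set's own arrays. A second probe set, 103709_at, read 144.1 and 142.2 with PBS and 374.1 and 369.6 with TGFb2, a difference of 1.29 ± 0.16. The arrays of a group lay close together in this probe set and the groups did not overlap, but its ratio of mean signals, 2.60, was smaller.

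Col1a2 encodes the a2 chain, which joins the a1 chains in the collagen I molecule. Its probe set 101130_at read 121.0 and 82.4 with PBS and 415.6 and 389.3 with TGFb2. The groups were separate, with a ratio of mean signals of 3.96 and a log2 difference of 1.86 ± 0.21. The other probe set, 161156_r_at, read 375.9 and 407.7 with PBS and 480.3 and 398.9 with TGFb2. In this one the groups overlapped and the difference was 0.16 ± 0.17. The suffix _r_at marks a probe set designed with fewer of the usual probe selection rules, and the files do not show which part of the transcript each probe set covers.

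Collagen III, whose chain Col3a1 encodes, forms fibrils together with collagen I in distensible tissues. Its brightest probe set, 98331_at, read 246.9 and 90.7 with PBS and 268.6 and 304.4 with TGFb2. PBS replicate 1 lay close to the TGFb2 arrays and PBS replicate 2 far below them. The log2 difference was therefore 0.86 ± 0.38, and it was 0.20 without PBS replicate 2 and 1.51 without PBS replicate 1. The probe set 161984_f_at read 36.0, 28.4, 42.8 and 28.4 in the order PBS 1, PBS 2, TGFb2 1 and TGFb2 2, with overlapping groups and a difference of 0.09 ± 0.28. The third, 102990_at, read 23.6 and 14.2 with PBS and 38.2 and 24.1 with TGFb2, a difference of 0.44 with no SE. Its mean over all arrays, 25.0, was just below the level of 25.1 that a probe set needed to be tested.

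Col5a2 encodes a chain of collagen V, a minor fibrillar collagen that takes part in starting fibrils of collagen I. Its single probe set, 92567_at, read 44.0 and 26.1 with PBS and 114.7 and 119.2 with TGFb2. The TGFb2 arrays agreed closely and both exceeded the PBS arrays, with a ratio of mean signals of 3.34 and a log2 difference of 1.42 ± 0.24.

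Collagen VI builds microfibrils near cell surfaces, and its chains behaved unequally. Col6a3, in probe set 101110_at, read 80.4 and 57.8 with PBS and 221.6 and 182.1 with TGFb2, a ratio of mean signals of 2.92 and a log2 difference of 1.37 ± 0.21 without overlap. Col6a1, in probe set 95493_at, read 309.2 and 201.3 with PBS and 356.5 and 262.3 with TGFb2. These groups overlapped, the difference was 0.28 ± 0.24, and it was -0.01 without PBS replicate 2. Its dim probe set 162459_f_at read 20.7 and 3.1 with PBS and 33.6 and 22.2 with TGFb2 and was not tested, with a mean of 19.9 over all arrays. The third chain of classical collagen VI, Col6a2, which is not a member, read 102.3 and 125.2 with PBS and 109.3 and 108.8 with TGFb2 (limma adjusted p = 0.959) and is named here after its values were seen.

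**Figure D1:**
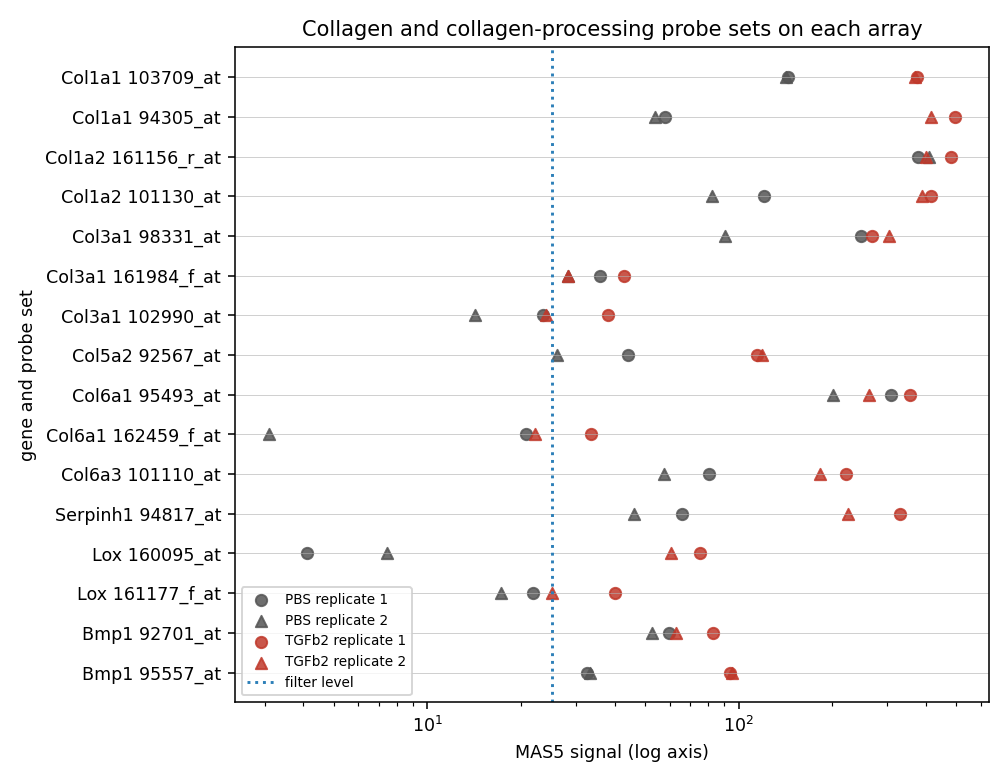
MAS5 signal (log axis) of the 16 probe sets of the 9 genes on each of the 4 arrays, with PBS in grey, TGFb2 in red, and circles and triangles for replicates 1 and 2. In 13 probe sets both TGFb2 arrays lie to the right of both PBS arrays, and in 3 the groups overlap. Among the 14 tested, both TGFb2 arrays lie above in 11, against 21.1% of all tested probe sets. The genes were chosen for this difference. The dotted line is the level of 25.1 below which the mean of a probe set was not tested.

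Serpinh1 encodes HSP47, a chaperone of the endoplasmic reticulum that binds the procollagen triple helix and leaves it before secretion. Its probe set 94817_at read 65.6 and 46.1 with PBS and 331.0 and 224.4 with TGFb2. Every TGFb2 array was at least 3.42 times the higher PBS array, and the log2 difference was 2.04 ± 0.24. The TGFb2 arrays were unequal, with an SD of 75.4 around a mean of 278, and the groups still did not overlap.

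Lox encodes lysyl oxidase, which starts the covalent cross-links of collagen and elastin outside the cell. Its probe set 160095_at read 4.1 and 7.4 with PBS and 74.9 and 60.8 with TGFb2. Both TGFb2 arrays were above both PBS arrays, whose signals may be background. Because both PBS signals lay under the level needed for testing, the size of this change depends on the pseudocount. The log2 difference was 2.00 ± 0.29, but 0.96 with 4 times the pseudocount and 3.61 with none. The other Lox probe set, 161177_f_at, read 21.8 and 17.2 with PBS and 40.1 and 25.2 with TGFb2, a difference of 0.45 ± 0.31 with narrowly separate groups.

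Bmp1 encodes the metalloproteinase that cuts the carboxyl-terminal propeptide from procollagen and also activates the Lox proenzyme. Its probe set 95557_at read 32.5 and 33.3 with PBS and 93.9 and 95.4 with TGFb2, a ratio of mean signals of 2.88 and a log2 difference of 1.19 ± 0.20. Arrays of a group were almost equal here. The probe set 92701_at read 59.7 and 52.7 with PBS and 82.8 and 62.8 with TGFb2, a difference of 0.29 ± 0.22 in which the groups were separate by a ratio of only 1.05.

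Of the 16 probe sets 14 were tested, and limma called 8 of them higher and 0 lower at an adjusted p of 0.05, where 0.805% of all 7453 tested probe sets were called higher and 0.362% lower. Since the genes were picked for this difference, nothing is read from that contrast. The 8 were both probe sets of Col1a1, 101130_at of Col1a2, 160095_at of Lox, 95557_at of Bmp1 and the single probe sets of Col5a2, Col6a3 and Serpinh1, and they represent 7 of the 9 genes. Their differences ran from 1.19 to 2.72, and those of the 6 other tested probe sets from 0.09 to 0.86. Among the 14, both TGFb2 arrays were above both PBS arrays in 11, and this held for 21.1% of all tested probe sets. The median difference was 1.24 over the 14, and 0.00 over all tested probe sets. The number called depended on the arrays, at 6 or 3 when PBS replicate 1 or 2 was left out and at 1 or 2 when TGFb2 replicate 1 or 2 was. Only Col1a1 94305_at was called under each of the 13 alternatives, with Serpinh1 called in 10, Col1a2 101130_at in 9, Col6a3 in 8, Col1a1 103709_at in 7, Lox 160095_at and Col5a2 in 6 each and Bmp1 95557_at in 4.

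Probe sets of the same gene often disagreed in size. Of the 9 genes 6 had several probe sets, and the largest and smallest difference within a gene were 1.70 apart for Col1a2, 1.55 for Lox, 1.43 for Col1a1, 0.90 for Bmp1, 0.76 for Col3a1 and 0.46 for Col6a1. In none of the 6 did the probe sets differ in sign over all 4 arrays. The 4 probe sets with an _f_at or _r_at suffix, which can share probes with related transcripts or use fewer selection rules, had the smaller difference of their gene for Col1a2, Col3a1 and Lox and the larger one for Col6a1.

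**Figure D2:**
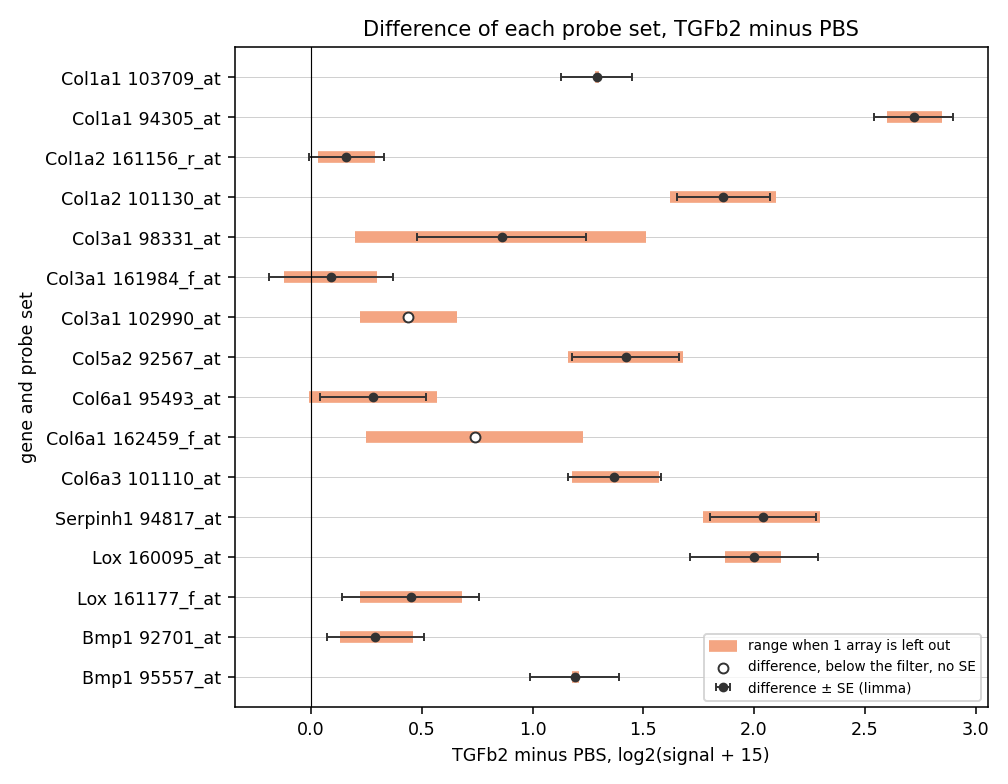
Log2 difference of TGFb2 minus PBS for each of the 16 probe sets (points, with limma SE where tested) and the range when each array is left out in turn (bars). The widest bar is that of Col3a1 98331_at, from 0.20 to 1.51, and the bars of Col3a1 161984_f_at and Col6a1 95493_at reach below 0.

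The arrays within a group were not equal for these genes. PBS replicate 1 was above PBS replicate 2 in 11 of the 14 tested probe sets, where this held for 51.3% of all tested probe sets. The exceptions were Lox 160095_at, Bmp1 95557_at and Col1a2 161156_r_at. TGFb2 replicate 1 was likewise above TGFb2 replicate 2 in 11 of the 14, against 53.6% of all. The ratio of the PBS arrays was 2.72 for Col3a1 98331_at, 1.69 for Col5a2, 1.54 for Col6a1 95493_at, 1.47 for Col1a2 101130_at and 1.42 for Serpinh1, but 1.07 and 1.01 for the probe sets of Col1a1.

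Markers of fibroblasts, mesothelium and mural cells, the cells best known for collagen synthesis, also differed between arrays. Of 33 listed genes 30 were on the array with 36 probe sets, and their summed signal was 4494 and 4186 with PBS and 4611 and 3918 with TGFb2, so the groups overlapped. That overlap rested on decorin (Dcn). Without it, a choice made after seeing the data, the sums were 3363 and 3439.6 with PBS and 4292 and 3661 with TGFb2, and without S100a4 too, the brightest of them, they were 1486 and 1337 with PBS and 2077 and 1736 with TGFb2. The full sum is weighted towards S100a4, Dcn and Pdpn, whose means over all arrays were 2029.7, 613 and 534, and Pdpn remained in the last sums. Because levels of different probe sets cannot be compared, none of these sums measures the share of such cells. Of 17 tested probe sets, 2 rose, 1 fell and 14 did not pass, with a median difference of 0.20. At an unadjusted p under 0.05 in limma 5 were higher and 2 lower, against 428 and 443 of all 7453 tested probe sets. The actin-binding protein transgelin (Tagln) rose by 1.96 ± 0.34 (limma adjusted p = 0.0494, from 6.71e-05 to 0.21 over the alternatives) and the matrix glycoprotein Fbln2 rose by 1.53 ± 0.25 (limma adjusted p = 0.0403, from 0.000149 to 0.163). Dcn, a small proteoglycan that binds collagen fibrils and is abundant in fibroblasts, fell from 1130.5 and 746.8 to 318.7 and 256.5, a difference of -1.63 ± 0.23 (limma adjusted p = 0.0265, from 2.63e-05 to 0.107). Tagln did not pass without PBS replicate 2 or without either TGFb2 array, Fbln2 without PBS replicate 2 or TGFb2 replicate 1, and Dcn without either TGFb2 array (limma adjusted p = 0.0969 and 0.095). The number called was 3 or 1 when PBS replicate 1 or 2 was left out, and 0 or 1 when TGFb2 replicate 1 or 2 was.

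Between the PBS arrays, 10 of the 17 were higher on replicate 1, or 58.8%, near the 51.3% of all tested probe sets. Between the TGFb2 arrays, 14 of the 17 were higher on replicate 1, or 82.4%, against 53.6% of all. Further markers were picked out once their values were known, and they went both ways. The matrix protein gene Mfap5 (99518_at) read 10.6 and 15.5 with PBS and 81.1 and 56.9 with TGFb2 (limma adjusted p = 0.0521), Mgp, an inhibitor of calcification, 7.3 and 18.4 with PBS and 67.4 and 54.1 with TGFb2 (0.082), and the smooth muscle actin Acta2 78.2 and 66.2 with PBS and 162.2 and 151.2 with TGFb2 (0.0575). These were separate between the groups, as were the dim and untested Pdgfrb and Postn, which averaged 12.2 and 13.0 with PBS and 30.6 and 29.6 with TGFb2. The fibroblast receptor Pdgfra (95079_at) read 232.6 and 116.9 with PBS and 128.2 and 62.2 with TGFb2, the proteoglycan lumican (Lum) 66.6 and 27.4 with PBS and 32.6 and 24.4 with TGFb2, and the mesothelial uroplakin Upk3b 92.9 and 76.0 with PBS and 63.4 and 43.2 with TGFb2. Pdgfra 95079_at, Lum and Upk3b were lower with TGFb2 in their means, without passing, and higher on PBS replicate 1, while Mgp and Mfap5 99518_at were higher on PBS replicate 2. Other probe sets of the same genes differed from these. Mfap5 99517_at read 27.4 and 28.8 with PBS and 42.8 and 29.1 with TGFb2, a difference of 0.23 ± 0.28. For Pdgfra, 160332_at read 56.3 and 42.3 with PBS and 53.2 and 69.4 with TGFb2, a difference of 0.25 ± 0.24 with overlapping groups. Its untested 161202_r_at averaged 2.75 with PBS and 0.75 with TGFb2. The fibroblast and mesothelial surface markers Thy1, between 2.5 and 4.5, and Msln, between 2.9 and 8.0, were among 19 probe sets below the level for testing. The lowest signal among those 19 was 0.6. No probe set of any gene read 0, as the lowest signal on each array was 0.1, so a signal above 0 does not show that a marker was expressed. In bulk RNA a larger number of such cells and more collagen RNA per cell cannot be told apart, and the part of these cells in the collagen differences was not tested.

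**Figure D3:**
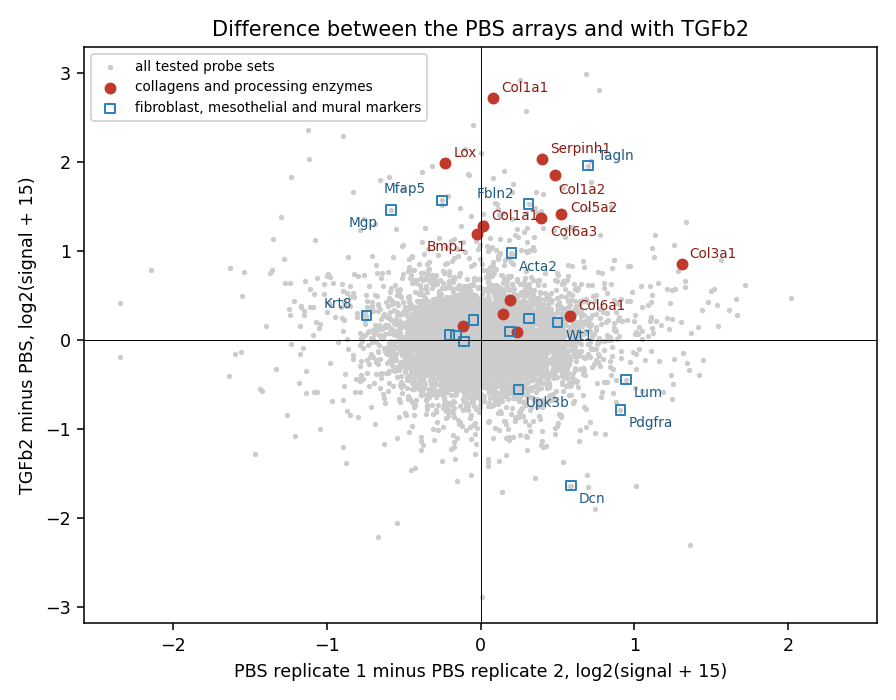
Each point is a tested probe set, with the log2 difference of PBS replicate 1 minus PBS replicate 2 on the horizontal axis and of TGFb2 minus PBS on the vertical axis. Collagen and processing probe sets (red) lie mostly to the right of 0 and above 0, Col3a1 98331_at lies farthest right of them, and Dcn, Lum, Upk3b and Pdgfra 95079_at (blue squares) lie to the right of 0 and below it. Tagln, Mfap5 99518_at, Fbln2, Mgp and Acta2 of the same list lie above 0, and Mgp, Mfap5 and Krt8 to its left.

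The other collagen chains on the array, taken by the form of their symbol, covered 25 genes and 33 probe sets. Of these 20 lay below the level for testing, among them all probe sets of Col2a1, Col11a1, Col11a2 and Col10a1, chains typical of cartilage, while the cartilage chains Col9a1, Col9a2 (98027_at) and Col9a3 (102070_at) were tested, with mean signals of 55.0, 139.9 and 43.6 and overlapping groups. Of the 13 tested, 0 passed in limma. At an unadjusted p under 0.05 in limma 5 were higher and 0 lower, against 428 and 443 of all 7453 tested probe sets. The median difference was 0.39 over the 13. The largest was that of Col5a1, the partner chain of Col5a2. Its probe set 101080_at read 12.3 and 4.0 with PBS and 70.1 and 51.4 with TGFb2, a difference of 1.72 ± 0.32 (limma adjusted p = 0.0575, from 0.00579 to 0.233 over the alternatives). Its brighter probe set 93472_at, named after its values were seen, read 217.2 and 220.3 with PBS and 359.9 and 319.9 with TGFb2 (limma adjusted p = 0.183). Col15a1, a chain of a basement membrane collagen, read 24.5 and 31.2 with PBS and 82.5 and 65.1 with TGFb2, a difference of 1.05 ± 0.24 (limma adjusted p = 0.111, from 0.0329 to 0.44).

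Genes of collagen folding, modification, secretion, trimming and cross-linking other than the members were represented by 20 tested probe sets of 16 genes. Of these 1 rose, 0 fell and 19 did not pass, with a median difference of 0.24. At an unadjusted p under 0.05 in limma 4 were higher and 1 lower, against 428 and 443 of all 7453 tested probe sets. The call was Sparc, a collagen-binding matricellular protein, which read 58.9 and 72.8 with PBS and 195.4 and 240.3 with TGFb2, a difference of 1.52 ± 0.20 (limma adjusted p = 0.0226, from 0.000149 to 0.107 over the alternatives). Sparc passed without PBS replicate 2 (0.0374) but not without PBS replicate 1 (0.0586), TGFb2 replicate 1 (0.0781) or TGFb2 replicate 2 (0.0851). The genes that follow were singled out after their values were seen. The hydroxylase subunit P4hb (161926_r_at) had the next largest difference and in the other direction, at 554.5 and 624.0 with PBS and 129.1 and 379.5 with TGFb2, -1.34 ± 0.41 without overlap (limma adjusted p = 0.225). Its dim and untested probe set 93108_at read 31.3 and 21.2 with PBS and 15.9 and 13.9 with TGFb2. The prolyl 4-hydroxylase P4ha1 read 137.2 and 113.2 with PBS and 171.6 and 137.1 with TGFb2 (limma adjusted p = 0.664). The lysyl hydroxylase Plod3 (160742_at) read 438.9 and 496.4 with PBS and 625.0 and 619.6 with TGFb2, a difference of 0.40 (limma adjusted p = 0.37). Plod3 95009_at and 161253_i_at had differences of 0.25 and 0.19, with overlapping groups in 161253_i_at. Pcolce, which enhances the cut made by Bmp1, read 69.6 and 69.5 with PBS and 94.3 and 111.2 with TGFb2 (limma adjusted p = 0.39). The Lox relative Loxl1 read 30.0 and 45.1 with PBS and 79.9 and 37.4 with TGFb2, with overlapping groups (limma adjusted p = 0.674).

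No receptor or uptake gene for collagen was called higher. Of 8 tested probe sets 0 rose, 1 fell and 7 did not pass, with a median difference of -0.24. At an unadjusted p under 0.05 in limma 0 were higher and 2 lower, against 428 and 443 of all 7453 tested probe sets. The scavenger receptor Cd36, which also binds collagen, fell from 234.4 and 207.2 to 93.2 and 96.3, a difference of -1.10 ± 0.17 (limma adjusted p = 0.0383). That call was lost when any one of the 4 arrays was left out (limma adjusted p between 0.0913 and 0.185). The collagen endocytic receptor Mrc2, singled out after its values were seen, read 62.8 and 38.6 with PBS and 13.0 and 7.3 with TGFb2, a difference of -1.37 ± 0.32 that did not pass (limma adjusted p = 0.125). Its TGFb2 signals lay below the level for testing, so this size depends on the pseudocount. Of 11 tested probe sets of proteases that cut collagen, 0 passed in limma, and the median difference was 0.17. At an unadjusted p under 0.05 in limma 3 were higher and 0 lower, against the same 428 and 443 of all 7453. The membrane-bound collagenase Mmp14 read 270.0 and 354.7 with PBS and 458.2 and 558.9 with TGFb2 (limma adjusted p = 0.202), and a dim probe set of cathepsin B (Ctsb 162271_f_at) read 44.9 and 8.8 with PBS and 52.9 and 37.7 with TGFb2 (limma adjusted p = 0.623). The brightest Ctsb probe set, 94831_at, added after its values were seen, read 11022.3 and 10144.5 with PBS and 14176.7 and 13558 with TGFb2. Its difference was 0.39 ± 0.09 without overlap (limma adjusted p = 0.104). Ctsb 92256_at and 95608_at had overlapping groups, with differences of 0.17 and -0.11.

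**Figure D4:**
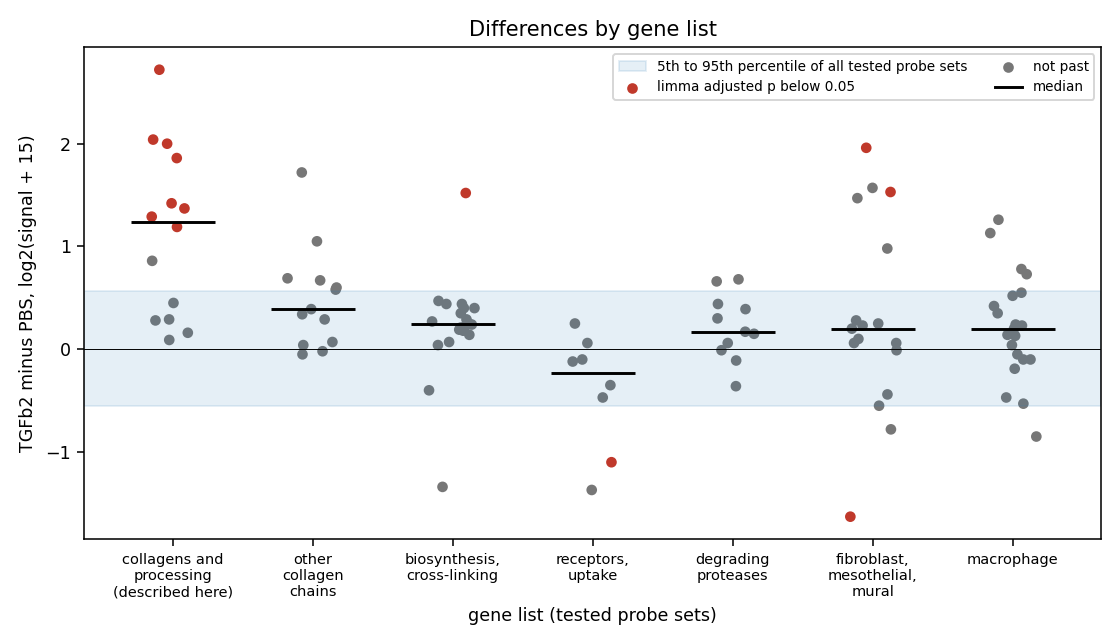
Log2 difference of TGFb2 minus PBS for each tested probe set (points) of the members and of 6 lists, with the median of each list as a bar and the range from the 5th to the 95th percentile of all tested probe sets (-0.55 to 0.57) shaded. Red points passed an adjusted p of 0.05 in limma. The medians are 1.24 for the members and between -0.24 and 0.39 for the lists.

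The average profile of the 14 tested probe sets, centred on each probe set's mean, was -0.43 and -0.71 with PBS and 0.68 and 0.46 with TGFb2. Outside the members, the named probe sets nearest to it by root mean square distance over the 4 arrays were those of Smad6, an inhibitory Smad (0.0444), the complement chain C1qc (0.0678), Maged1 (0.0737), the integrin chain Itgb5 (0.0804) and the thrombin receptor F2r (0.0812). Smad6 read 35.9 and 28.0 with PBS and 93.0 and 85.8 with TGFb2 and did not pass (limma adjusted p = 0.0576). C1qc passed (limma adjusted p = 0.0439), while Maged1, Itgb5 and F2r did not (0.0749, 0.0547 and 0.0575). With 4 arrays this likeness describes only a level with PBS, a level with TGFb2 and the order of arrays within them.

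Promoter windows of 5 of the 9 genes were in the RefSeq table of the GRCm38.p6 assembly, each from 250 bases before to 50 after the annotated start. Windows of Col1a2, Serpinh1 and Col6a3, each with a called probe set, are shown with that of Col3a1, which had none. The other Col1a2 probe set had overlapping groups, and the window of Col6a1, also without a call, is not shown. Capitals mark matches, on either strand, to the Smad-binding element CAGAC, the GC box GGGCGG, the TATA box TATAAA and the CCAAT box, and no matches overlapped. The windows are chr6:4505368-4505667 on the plus strand for Col1a2, chr7:99353190-99353489 on the minus strand for Serpinh1, chr1:90843922-90844221 on the minus strand for Col6a3 and chr1:45311288-45311587 on the plus strand for Col3a1, each written 5′ to 3′ in the direction of the gene.
Col1a2: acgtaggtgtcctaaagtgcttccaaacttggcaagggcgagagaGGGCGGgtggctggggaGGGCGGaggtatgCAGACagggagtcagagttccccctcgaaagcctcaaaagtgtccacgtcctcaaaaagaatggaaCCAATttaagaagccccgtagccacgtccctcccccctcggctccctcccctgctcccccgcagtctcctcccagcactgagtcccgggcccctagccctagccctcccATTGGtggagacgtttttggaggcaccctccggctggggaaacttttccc
Serpinh1: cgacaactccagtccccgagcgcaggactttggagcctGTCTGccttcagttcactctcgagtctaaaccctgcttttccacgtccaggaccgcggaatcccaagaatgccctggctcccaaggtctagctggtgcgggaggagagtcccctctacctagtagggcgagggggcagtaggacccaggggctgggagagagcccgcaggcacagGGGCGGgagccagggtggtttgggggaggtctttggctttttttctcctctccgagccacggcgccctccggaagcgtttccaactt
Col6a3: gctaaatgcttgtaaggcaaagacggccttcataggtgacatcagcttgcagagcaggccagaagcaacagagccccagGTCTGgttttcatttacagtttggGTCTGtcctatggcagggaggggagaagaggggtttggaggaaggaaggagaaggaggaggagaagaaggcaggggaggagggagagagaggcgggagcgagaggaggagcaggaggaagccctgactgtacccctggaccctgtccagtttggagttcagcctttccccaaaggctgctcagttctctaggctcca
Col3a1: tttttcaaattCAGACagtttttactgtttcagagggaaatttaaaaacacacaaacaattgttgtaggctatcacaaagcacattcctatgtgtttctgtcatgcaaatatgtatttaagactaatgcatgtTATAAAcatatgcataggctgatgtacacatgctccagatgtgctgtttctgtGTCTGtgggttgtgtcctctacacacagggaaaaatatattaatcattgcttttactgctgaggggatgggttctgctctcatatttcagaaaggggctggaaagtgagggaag

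The Smad-binding element is the short sequence bound by Smad3 and Smad4, the transcription factors that carry the TGF-beta signal to the nucleus. CAGAC was found in 4 of the 5 windows, all but that of Col6a1, and in 49.6% of all 32851 windows of that length. Col1a2 and Serpinh1 had 1 match each, starting at -175 and -212 from the start site, and Col6a3 had 2, at -171 and -147. Col3a1 also had 2, at -239 and -64. GGGCGG was in 2 of the 5 windows and in 35.7% of all, TATAAA in 1 and 13.6%, and CCAAT in 1 and 37.4%. CAGAC was thus in the windows of Col1a2, Serpinh1 and Col6a3 and in that of Col3a1, of which no probe set was called, and the match is a description of letters only.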

How the data were processed

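The values used are the deposited probe set intensities of 4 arrays, made with MAS5 per the submitters' processing notes, without a version. Detection calls, the authors' filters and any scan date are not given in the labels used here. Probe set genes came from the platform annotation, in which 10833 probe sets have 1 symbol, 396 several and 1193 none, and 66 controls were left out. Of the 10833, 10817 were found by gene ID in the GRCm38.p6 gene table and 0 symbols changed. Trimmed means (2% from each end) were equal, so no scaling was added. Signals were taken to log2(signal + 15), and the 7453 probe sets with a mean at or above the 40th percentile (25.1) were fitted with limma 3.58.1 in R 4.3.3 (intensity trend, two-sided, Benjamini-Hochberg over all 7453, threshold 0.05), TGFb2 against PBS with no further term. The added 15 makes differences of dim genes too small. The fit was run on data simulated from its own variances with planted changes, which checks the code and not the calls made here. Named from each list were called probe sets (up to 4 per direction) or, in a list with no call, the 2 most different ones. The members, the 6 lists and the tests were chosen with earlier results of these data known. No array values were identical beyond 52 to 98 ties per pair. Alternatives covered pseudocount, normalization, filter, variance trend, replicate block and each array left out.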

Additional observations from a re-analysis of the deposited data

How the results depend on the processing

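Over all probe sets 87 were called, and 56 without a pseudocount, 6 without the filter, 13 without the intensity trend and 11 to 50 with 1 array left out. For the members 8 became 5 without a pseudocount, 1 without the filter, 2 without the trend and 1 to 6 with 1 array left out. After cyclic loess, 1 other collagen chain, 5 fibroblast, mesothelial and mural markers and 1 macrophage marker were called, and 1 macrophage marker was called when only probe sets above the 60th percentile were tested. Without the filter, and also without the trend, 0 biosynthesis genes, 0 receptors and 0 fibroblast, mesothelial and mural markers were called. With 1 array left out, 0 to 1 biosynthesis genes (without TGFb2 replicate 2 the 1 was lower and not Sparc), 0 receptors and 0 to 3 fibroblast, mesothelial and mural markers were called. The cause of these changes was not tested; leaving out an array removes a residual degree of freedom.

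The replicate number as a block gave 324 calls over all probe sets, 8 for the members, 2 other collagen chains, 2 biosynthesis genes, 2 receptors, 2 proteases, 7 fibroblast, mesothelial and mural markers and 5 macrophage markers. Deviations of same-numbered arrays correlated at 0.14 over tested probe sets, and with 2 pairs the arrays share only a number.

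Of 208 values of the 16 member differences under the 13 alternatives, 22 moved by more than the spread between replicates, 3 changed sign and 183 did neither. Filter, variance trend and replicate block cannot change a difference, and leaving out 1 array cannot move it by more than that spread. Only the pseudocount and normalization settings could do so, and the 183 is therefore no measure of stability. The sign changes were Col3a1 161984_f_at at -0.03 without PBS replicate 2 and -0.12 without TGFb2 replicate 1, and Col6a1 95493_at at -0.01 without PBS replicate 2. With each array left out in turn these ran from -0.12 to 0.30 and from -0.01 to 0.57. With 2 arrays per group and no detection calls, dim probe sets such as Lox 160095_at with PBS cannot be told from background.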
